A study of Mus musculus with 12 samples.

Results

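The genes of the insulin-like growth factor (IGF) axis examined here were *Igf1*, *Igf1r*, *Igf2r*, *Igfbp2*, *Igfbp3*, *Igfbp4*, *Igfbp5*, *Igfbp6*, *Irs1*, and *Irs2*. They are 10 of the 55536 mouse genes in the read count table and were taken by name. RNA had been sequenced from C2C12GFP cells, a mouse skeletal myoblast line that carries green fluorescent protein and fuses into myofibers in culture. The cells were grown on uncoated plates (control) or on a coat of Collagen I, of fibronectin, or of Geltrex™, which is a basement membrane matrix, with 3 samples in each of the 4 groups and 12 in all. All groups share the 1 cell line, and the coating is the difference the labels give between them. The day of differentiation at which this RNA was taken was not given in the sources used here, nor was it stated whether the 3 samples of a group came from separate cultures, so p-values measure only the spread between these samples.

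IGF1 is a secreted growth factor that binds the receptor tyrosine kinase encoded by *Igf1r*, and in muscle it is known for promoting growth and myoblast differentiation. *Irs1* and *Irs2* encode the adaptor proteins that the activated receptor phosphorylates and that recruit PI3 kinase. The binding proteins encoded by the *Igfbp* genes hold IGFs in the extracellular space and can inhibit or prolong their action, and *Igf2r* encodes a scavenger receptor that takes IGF2 to lysosomes.

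The regions upstream of 4 members are shown as 2 pairs, *Irs1* and *Irs2*, both highest on Geltrex™, and *Igfbp2* and *Igfbp4*, which moved in opposite directions on fibronectin and Geltrex™. Each line gives the 250 bases before a RefSeq transcript start in GRCm38.p6, 5′ to 3′ on the strand of the gene, and capitals mark matches to the motifs named afterwards. The *Irs1* window is chr1:82291440-82291689 on the minus strand, and the *Irs2* window is chr8:11008930-11009179 on the minus strand. The *Igfbp2* window, the first of 2 for that gene, is chr1:72824230-72824479 on the plus strand, and the *Igfbp4* window is chr11:99040994-99041243 on the plus strand.
Irs1: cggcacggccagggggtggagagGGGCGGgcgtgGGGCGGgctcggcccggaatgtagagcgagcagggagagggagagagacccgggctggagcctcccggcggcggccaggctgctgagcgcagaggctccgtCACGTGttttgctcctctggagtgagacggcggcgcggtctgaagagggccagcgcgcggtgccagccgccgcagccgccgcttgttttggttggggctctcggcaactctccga
Irs2: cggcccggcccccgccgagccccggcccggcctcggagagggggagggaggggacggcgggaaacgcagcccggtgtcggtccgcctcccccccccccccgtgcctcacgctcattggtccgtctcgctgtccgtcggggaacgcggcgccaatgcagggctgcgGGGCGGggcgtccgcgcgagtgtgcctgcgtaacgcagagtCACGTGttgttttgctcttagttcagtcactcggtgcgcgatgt
Igfbp2: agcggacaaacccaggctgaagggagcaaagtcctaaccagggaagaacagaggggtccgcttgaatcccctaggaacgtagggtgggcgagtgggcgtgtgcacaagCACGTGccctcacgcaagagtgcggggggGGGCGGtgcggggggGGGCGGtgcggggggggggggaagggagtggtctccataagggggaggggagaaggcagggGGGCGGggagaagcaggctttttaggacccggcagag
Igfbp4: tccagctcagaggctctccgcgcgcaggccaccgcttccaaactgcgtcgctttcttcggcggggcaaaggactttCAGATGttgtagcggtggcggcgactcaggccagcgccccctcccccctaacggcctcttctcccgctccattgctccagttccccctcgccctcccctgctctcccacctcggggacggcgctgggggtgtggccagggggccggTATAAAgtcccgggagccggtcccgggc

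All 10 genes matched a RefSeq start, in 11 windows. Both strands were searched for CANNTG (the E-box read by myogenic bHLH factors), for CACGTG (the E-box with a CG centre, which is also a CANNTG), and for GGGCGG (the GC box), TATAAA (the TATA box), and GTAAACA (a forkhead element). The motif CACGTG was added after the sequences had been seen. It occurred in the printed windows of *Irs1*, *Irs2*, and *Igfbp2* and in that of *Igf2r*, which makes 4 of 11 windows, against 6.02% of all 32851 windows of the same length. CANNTG occurred in 10 of 11 windows, against 66.2% of all windows, and GGGCGG in 5 of 11, against 32.7%. TATAAA occurred in the windows of *Igfbp4* and *Igfbp6*, against 12.4% of all windows. GTAAACA, found in 3.17% of all windows, was not among the letters of the 11 member windows. The GC content was 72.4% for *Irs1*, 72.8% for *Irs2*, 67.2% for *Igfbp2*, and 69.2% for *Igfbp4*, against a median of 52.4% over all windows. These matches describe the letters only.

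In the GRCm38 annotation of GENCODE, *Igf1* lies at chr10:87858265-87937042, *Igf1r* at chr7:67952827-68233668, and *Igf2r* at chr17:12682406-12769664. *Igfbp2* at chr1:72824503-72852474 and *Igfbp5* at chr1:72857932-72874884 are neighbours that are transcribed towards each other, with 5457 bases between their ends. *Igfbp3* at chr11:7206086-7213923 and *Igfbp4* at chr11:99041244-99054392 share a chromosome, and *Igfbp6* lies at chr15:102144362-102149511. *Irs1* lies at chr1:82233101-82291416, and 30.86% of its exon bases are shared with *Gm9747* on the opposite strand, which had 0 counts in all 12 samples. *Irs2* lies at chr8:10984681-11008458 and shares 2.562% of its exon bases with the opposite-strand gene 9530052E02Rik, which had 1 count in all samples together. Whether the counting used strand was not given in the sources used here. How reads on shared bases were counted was not given either. The level of *Irs1* per length, and its ratio to *Irs2*, may therefore be too low.

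The counts on genes came to between 22520404 and 27351766 per sample, and all 10 members were among the 14499 genes that passed the filter on low counts, with a lowest count of 150. Levels are read counts relative to library size (CPM), scaled by the TMM method. Comparisons are from edgeR's quasi-likelihood test fitted on all 12 samples, with Benjamini-Hochberg adjustment over all genes tested. A gene was called where the adjusted p was 0.05 or less, and a differentially expressed gene (DEG) also had a fold change of at least 2. Log2 fold changes are the first group over the second and are given with the standard error (SE) implied by the F statistic of the test.

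The coatings also differed in the state of the cells. The summed level of 9 myotube genes was 6803 to 7724 CPM in the control and 7376 to 7600 on Collagen I, against 2199 to 2583 on fibronectin and 3058 to 3340 on Geltrex™, and 9 of 9 were lower on fibronectin and on Geltrex™ than in the control. The summed level of 5 cell cycle genes was 161 to 210 CPM in the control and 140 to 148 on Collagen I, against 531 to 710 on fibronectin and 558 to 611 on Geltrex™, with 5 of 5 higher on both. The sum of 6 interferon-stimulated genes was 53.9 to 93.2 CPM on Geltrex™ and at most 7.58 elsewhere, with 5 higher on Geltrex™. The sum of 3 myoblast genes lay between 137 and 169 CPM in all samples, and 1 of them was lower on Geltrex™. Of 4 osteoblast genes, *Ibsp* was at 0 in all samples and *Runx2* alone passed the filter, and their sum was 50.0 to 92.5 CPM. *Runx2* was called higher on fibronectin than in the control (log2 fold change 0.32, adjusted p = 0.0433 in edgeR's test). It was also called lower on Collagen I than on fibronectin and on Geltrex™. The sums of 4 adipocyte genes (at most 0.431 CPM), 5 leukocyte genes (at most 1.85, with *Adgre1* at 0), and 4 endothelial genes (at most 3.49) were low throughout. Of the endothelial genes *Tek* alone passed the filter. It was called lower on Geltrex™ than in the control (log2 fold change -1.24, adjusted p = 0.0102 in edgeR's test). On Collagen I and on Geltrex™ it was called lower than on fibronectin. The sum of 4 hepatocyte genes was at most 0.0425 CPM outside Geltrex™ and ranged from 0 to 2.31 between the samples there, with *Serpina1a* at 0. *Alb* averaged 0.598 CPM on Geltrex™ with an SD of 1.04, so this level was not shared by the samples of that group. The part of these genes in the results that follow was not tested, and in these bulk samples fewer cells of a type and less RNA per cell cannot be told apart.

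Per kilobase of exon, the level of *Igfbp5* was the highest of the 10 genes, with a mean over the 12 samples of 672 CPM per kilobase. *Igfbp6* followed at 96.5, *Igf1* at 30.3, and *Igfbp2* at 25.5 CPM per kilobase. The remaining members lay below 10 on this scale, with *Igfbp3* at 8.21, *Igf1r* at 7.93, *Irs1* at 6.08, *Igf2r* at 4.90, *Irs2* at 3.55, and *Igfbp4* at 3.09. Among these 10 genes, transcripts per length were therefore mostly those of binding proteins rather than of *Igf1* or the receptors. The other ligand gene, *Igf2*, is not part of this comparison.

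**Figure D1:**
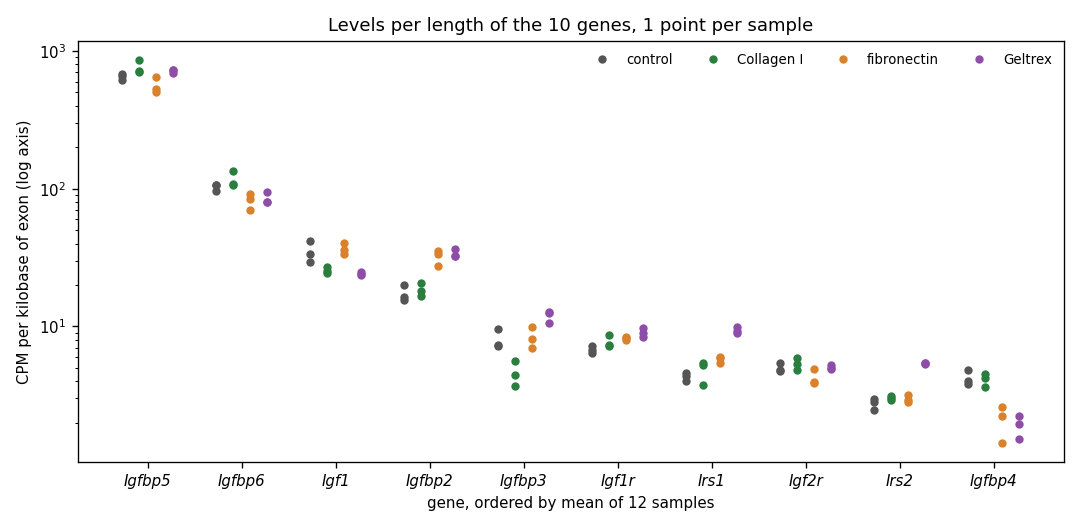
Level per length of each of the 10 genes (CPM per kilobase of exon, log axis), with 1 point per sample and 1 colour per group, ordered by the mean of the 12 samples. *Igfbp5*, with a mean of 672, stands above *Igfbp6*, at 96.5, and the other genes lie between 3.09 and 30.3.

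Fold differences between coatings were largest for *Igfbp3*, whose highest group mean in CPM was 2.59 times its lowest, followed by *Igfbp4* (2.21), *Irs1* (2.17), *Irs2* (1.96), and *Igfbp2* (1.95). The same ratio was 1.51 for *Igf1*, 1.41 for *Igfbp6*, 1.37 for *Igfbp5*, 1.33 for *Igf1r*, and 1.26 for *Igf2r*. The plot of CPM by sample shows these differences against the spread within each group.

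**Figure D2:**
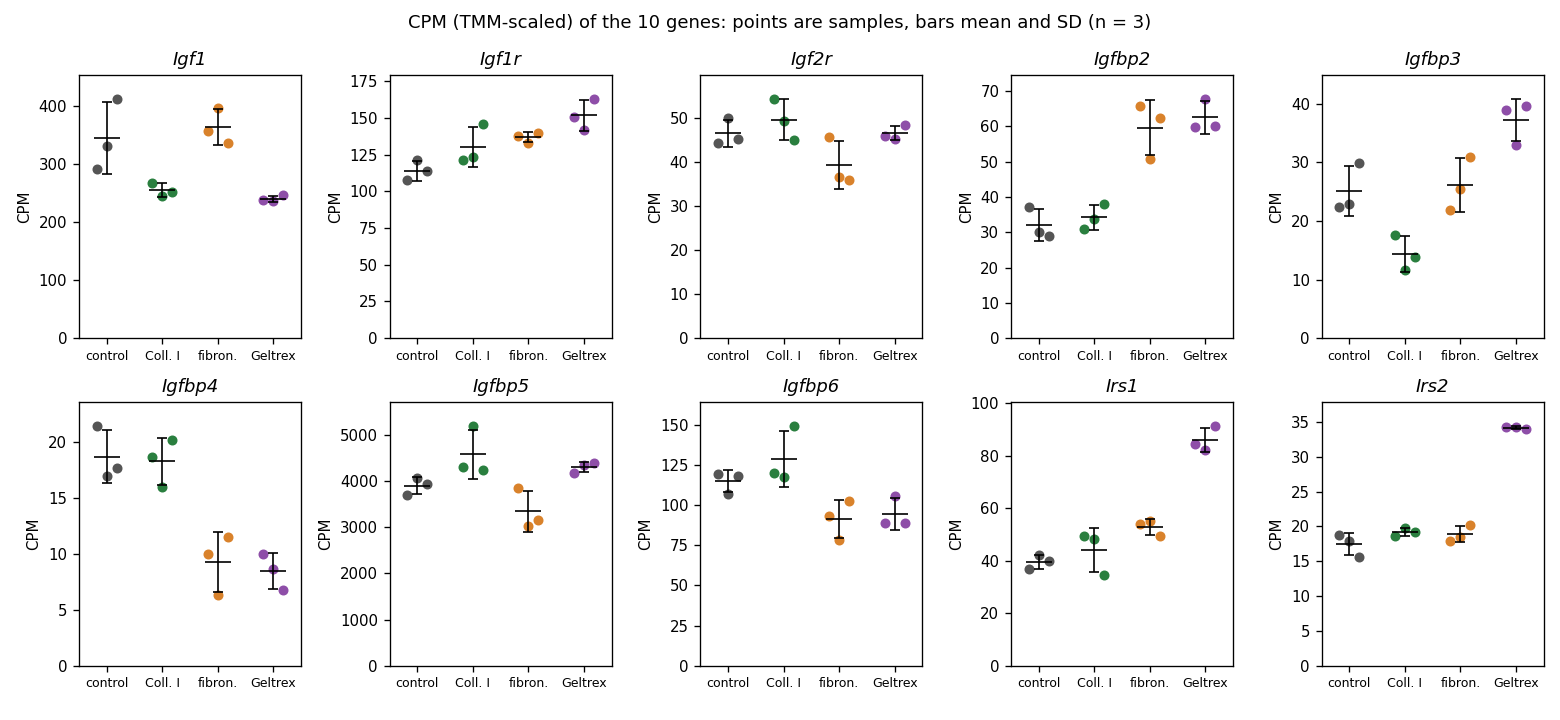
Level of each gene in CPM (TMM-scaled) by group, with a point for each sample, a horizontal bar for the mean, and error bars for the SD (n = 3), on axes that start at 0. On Geltrex™ the 3 samples of *Irs1* (82.2 to 91.1 CPM) and of *Irs2* (34.0 to 34.3 CPM) lie above every other sample, and *Igfbp2* is high and *Igfbp4* low on both fibronectin and Geltrex™.

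*Igf1*, the ligand, was lower on Geltrex™ than in the control and on fibronectin, and lower on Collagen I than on fibronectin. Its level was 291, 330, and 412 CPM in the control samples, 267, 244, and 252 on Collagen I, 356, 397, and 335 on fibronectin, and 238, 236, and 246 on Geltrex™. The Collagen I and Geltrex™ samples all lay below every control and fibronectin sample, whereas control overlapped fibronectin and Collagen I overlapped Geltrex™. The mean was 345 ± 61.4 CPM in the control, 254 ± 11.8 on Collagen I, 363 ± 31.3 on fibronectin, and 240 ± 5.37 on Geltrex™ (SD, n = 3 each). The log2 fold change of Geltrex™ over control was -0.52 (SE 0.106, adjusted p = 0.00129 in edgeR's test), that of fibronectin over Geltrex™ was 0.60 (SE 0.107, adjusted p = 0.000924), and that of Collagen I over fibronectin was -0.51 (adjusted p = 0.00127).

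Against the control, *Igf1* on Collagen I differed by -0.44 on the log2 scale (SE 0.106), and its adjusted p of 0.0592 missed the threshold in edgeR's test. It passed with DESeq2 (adjusted p = 0.00875) and without the filter on low counts (0.000785), and also without control replicate 1 (0.0187) or without fibronectin replicate 2 (0.0470). Across the fits without 1 library, this log2 fold change ranged from -0.55 to -0.29 and its adjusted p reached 0.202. *Igf1* on fibronectin and in the control differed by 0.07 (adjusted p = 0.634, 95% interval -0.15 to 0.30), and Collagen I and Geltrex™ differed by 0.08 (adjusted p = 0.557, 95% interval -0.14 to 0.31).

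The other IGF ligand gene of the pathway, *Igf2*, was listed at 0 in all 12 samples. It shares 62.83% of its exon bases with *Gm49394* on the same strand, and how the counting treated such reads was not given in the sources used here, so no level can be read from these zeros.

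*Igf1r*, which encodes the receptor that carries the IGF1 signal, was higher on fibronectin and on Geltrex™ than in the control. Its level was 108, 121, and 113 CPM in the control, 121, 123, and 146 on Collagen I, 137, 133, and 140 on fibronectin, and 150, 142, and 163 on Geltrex™. Each Geltrex™ and each fibronectin sample lay above every control sample. The group means were 114 ± 6.74, 130 ± 13.5, 137 ± 3.47, and 152 ± 10.8 CPM in the same order (SD, n = 3 each).

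The log2 fold change of *Igf1r* was 0.41 on Geltrex™ (SE 0.0858, adjusted p = 0.00160 in edgeR's test) and 0.26 on fibronectin (SE 0.0858, adjusted p = 0.0288), both over control. The first call was kept whichever library was left out. The second was lost without control replicate 1 (adjusted p = 0.112), control replicate 3 (0.0645), fibronectin replicate 1 (0.0732), or fibronectin replicate 3 (0.0595), and in a fit of these 2 groups alone (0.0529). The direct comparison of fibronectin with Geltrex™ gave -0.15 (adjusted p = 0.242, 95% interval -0.33 to 0.03), so the test did not show these coatings to differ. Every Geltrex™ sample nevertheless lay above every fibronectin sample. Collagen I over Geltrex™ gave -0.22 (adjusted p = 0.0546), which passed without Collagen I replicate 3 (0.00896), with DESeq2 (0.0347), and with the RLE scaling (0.0486). Its adjusted p reached 0.214 in another fit without 1 library.

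*Igf2r*, the gene of the scavenger receptor, had the smallest differences of the 10. Its level was 44.3, 50.1, and 45.3 CPM in the control, 54.5, 49.5, and 45.1 on Collagen I, 45.7, 36.6, and 35.9 on fibronectin, and 46.1, 45.4, and 48.5 on Geltrex™. The single call was Collagen I over fibronectin, which differed by 0.33 on the log2 scale (SE 0.1005, adjusted p = 0.0138 in edgeR's test), and the samples of these groups overlapped. That call was lost without Collagen I replicate 1 (adjusted p = 0.0752), fibronectin replicate 2 (0.0622), or fibronectin replicate 3 (0.0600). *Igf2r* on fibronectin against control, at -0.24 (adjusted p = 0.0793), passed without Collagen I replicate 3 (0.0447), without fibronectin replicate 1 (0.0184), or when genes under 10 counts in any sample were left out (0.0463). Fibronectin over Geltrex™, also at -0.24 (adjusted p = 0.106), passed without fibronectin replicate 1 (0.0257). In other fits without 1 library, the adjusted p reached 0.254 for fibronectin against control and 0.309 for fibronectin over Geltrex™.

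*Igfbp2*, a binding protein gene, was higher on fibronectin and on Geltrex™ than in the control or on Collagen I. Its level was 37.1, 30.1, and 28.9 CPM in the control, 30.9, 33.7, and 38.0 on Collagen I, 65.6, 50.7, and 62.3 on fibronectin, and 59.8, 67.8, and 60.0 on Geltrex™. All 6 fibronectin and Geltrex™ samples lay above all 6 control and Collagen I samples, and within each of these pairs of coatings the samples overlapped. Over control, the fold was 1.86 on fibronectin (log2 fold change 0.89, SE 0.117, adjusted p = 3.34e-05 in edgeR's test) and 1.95 on Geltrex™ (log2 fold change 0.96, SE 0.117, adjusted p = 1.16e-05). Over Collagen I the differences passed as well, with Collagen I at -0.80 relative to fibronectin (adjusted p = 6.76e-05) and at -0.87 relative to Geltrex™ (adjusted p = 3.24e-05). Fibronectin and Geltrex™ differed by -0.07 (adjusted p = 0.710, 95% interval -0.31 to 0.17).

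*Igfbp4*, whose product is one of the binding proteins that the protease pappalysin-1 cuts, went the opposite way. Its level was 21.4, 16.9, and 17.7 CPM in the control, 18.6, 15.98, and 20.1 on Collagen I, 9.95, 6.28, and 11.5 on fibronectin, and 9.95, 8.65, and 6.76 on Geltrex™. Every fibronectin and Geltrex™ sample lay below every control and Collagen I sample. Over control, *Igfbp4* differed on the log2 scale by -1.01 on fibronectin (SE 0.184, adjusted p = 0.000703 in edgeR's test) and -1.14 on Geltrex™ (SE 0.187, adjusted p = 0.000211), a 2.01-fold and a 2.20-fold reduction, so that *Igfbp4* was a DEG in both. Collagen I exceeded fibronectin by 0.97 (adjusted p = 0.000639) and Geltrex™ by 1.11 (adjusted p = 0.000279) on the log2 scale. The 4 calls of *Igfbp4* and the 4 of *Igfbp2* were kept in every fit that left out 1 library.

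Because both are genes of binding proteins, the ratio of *Igfbp2* to *Igfbp4* per length was also taken within each library, a measure chosen after the values had been seen and therefore not tested. It was 4.11 ± 0.178 in the control and 4.51 ± 0.534 on Collagen I, and 16.01 ± 3.19 on fibronectin and 18.1 ± 3.47 on Geltrex™ (SD, n = 3 each). The lowest value on fibronectin, 12.96, lay above the highest on Collagen I, 5.04.

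In the fit of all 12 samples, *Igfbp4* was the only member that passed as a DEG in more than 1 comparison with the control. Across the 12 samples, the genes whose log2 CPM followed that of *Igfbp4* most closely were *Fbxo31* (Pearson r = 0.978), *Grip1* (r = 0.966), and *Atp9a* (r = 0.963), out of 12319 genes with a mean of at least 1 CPM. The 12 points share their libraries and fall into groups by coating, so these values describe likeness only. *Grip1* averaged 1.87 and 2.12 CPM in the control and on Collagen I against 0.891 and 0.768 CPM on fibronectin and Geltrex™.

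*Igfbp3*, which encodes the main carrier of IGFs in the circulation, was lowest on Collagen I and highest on Geltrex™. Its level was 22.5, 22.9, and 30.0 CPM in the control, 17.6, 11.6, and 13.9 on Collagen I, 21.9, 25.5, and 31.0 on fibronectin, and 39.0, 33.0, and 39.6 on Geltrex™. Every Collagen I sample lay below every other sample and every Geltrex™ sample above every other, while control and fibronectin overlapped. Collagen I was 2.60-fold below Geltrex™ (log2 fold change -1.38, SE 0.160, adjusted p = 7.19e-06 in edgeR's test), which passed as a DEG, and lower than fibronectin by -0.86 (adjusted p = 0.000543). Geltrex™ exceeded control by 0.57 (SE 0.154, adjusted p = 0.00994).

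Collagen I against control gave -0.81 for *Igfbp3* (SE 0.161, adjusted p = 0.0240 in edgeR's test), a 1.75-fold reduction, and this was the only one of the 10 genes called between these groups. The call was lost without control replicate 2 (adjusted p = 0.0504), control replicate 3 (0.101), Collagen I replicate 2 (0.101), or Collagen I replicate 3 (0.0551), and in a fit of the 2 groups alone (0.0818). Fibronectin over Geltrex™ gave -0.51 (adjusted p = 0.0294), and was lost without fibronectin replicate 1 (0.133), fibronectin replicate 2 (0.0861), Geltrex™ replicate 1 (0.1002), or Geltrex™ replicate 3 (0.105).

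*Igfbp5*, the most abundant member and a binding protein gene known to be induced in differentiating myoblasts, varied little in relative terms. Its level was 3699, 4072, and 3931 CPM in the control, 4304, 5189, and 4246 on Collagen I, 3859, 3028, and 3162 on fibronectin, and 4180, 4345, and 4393 on Geltrex™. The fibronectin samples lay below every Collagen I and every Geltrex™ sample, and overlapped the control. Every Collagen I and every Geltrex™ sample lay above every control sample. Collagen I over fibronectin was 0.45 on the log2 scale (SE 0.105, adjusted p = 0.00277 in edgeR's test) and was kept whichever library was left out.

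The difference of fibronectin from Geltrex™ for *Igfbp5* was -0.36 (SE 0.105, adjusted p = 0.0237 in edgeR's test). It was lost without fibronectin replicate 2 (adjusted p = 0.0996) or 3 (0.0636) and without Geltrex™ replicate 1 (0.0568), 2 (0.0769), or 3 (0.0805). No coating was called against the control for *Igfbp5*. The fibronectin difference passed without fibronectin replicate 1 (adjusted p = 0.0374), and its adjusted p reached 0.352 in another fit without 1 library. The log2 fold changes over control were 0.23 on Collagen I (adjusted p = 0.314), -0.22 on fibronectin (0.122), and 0.14 on Geltrex™ (0.325). These small differences stood beside lower levels of 9 of 9 myotube genes on fibronectin and Geltrex™, whose part in them was not tested.

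*Igfbp6*, a binding protein gene whose product prefers IGF2, had its highest mean on Collagen I, above fibronectin and Geltrex™. Its level was 119, 107, and 118 CPM in the control, 120, 118, and 149 on Collagen I, 93.1, 78.5, and 102 on fibronectin, and 88.8, 106, and 88.9 on Geltrex™. The fibronectin and Geltrex™ samples all lay below every control and Collagen I sample. Collagen I exceeded fibronectin by 0.50 (adjusted p = 0.00231 in edgeR's test) and Geltrex™ by 0.45 (adjusted p = 0.00573) on the log2 scale, and both calls were kept whichever library was left out.

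Against the control, *Igfbp6* was -0.33 on fibronectin (SE 0.112, adjusted p = 0.0353 in edgeR's test) and -0.28 on Geltrex™ (SE 0.112, adjusted p = 0.0691). The fibronectin call was lost without control replicate 1 (adjusted p = 0.103), control replicate 3 (0.0897), fibronectin replicate 1 (0.0787), or fibronectin replicate 2 (0.164). The Geltrex™ value passed without Collagen I replicate 3 (0.0275), fibronectin replicate 2 (0.0473), or Geltrex™ replicate 2 (0.0467), in a fit of these 2 groups alone (0.0156), and without the filter on low counts (0.0386). Its adjusted p reached 0.233 in another fit without 1 library. Fibronectin and Geltrex™ differed by -0.05 (adjusted p = 0.792, 95% interval -0.29 to 0.19).

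Among the 5 binding protein genes, *Igfbp5* made up most of the summed level per length in every group, with 83.0% ± 1.51 in the control, 84.1% ± 2.80 on Collagen I, 81.7% ± 2.16 on fibronectin, and 84.4% ± 0.955 on Geltrex™ (SD, n = 3 each). *Igfbp6* held 13.2%, 12.9%, 12.1%, and 9.997% in the same order. The share of *Igfbp2* was 2.22% ± 0.381 and 2.06% ± 0.278 in the control and on Collagen I, and 4.72% ± 0.309 and 3.98% ± 0.226 on fibronectin and Geltrex™, and no sample of the first pair of groups overlapped the second pair. *Igfbp3* held between 0.515% on Collagen I and 1.40% on Geltrex™, and *Igfbp4* between 0.226% on Geltrex™ and 0.542% in the control. The make-up of the pool thus shifted in its minor members, as the mean share of *Igfbp5* stayed between 81.7% and 84.4%.

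Set against the ligand gene, *Igfbp5* was 19.0 ± 2.84 times *Igf1* per length in the control and 15.3 ± 2.64 times on fibronectin, and 29.8 ± 4.61 times on Collagen I and 29.6 ± 0.728 times on Geltrex™ (SD, n = 3 each). *Igfbp3* was 0.231 ± 0.0124 times *Igf1* in the control, 0.178 ± 0.0291 on Collagen I, 0.230 ± 0.0544 on fibronectin, and 0.491 ± 0.0412 on Geltrex™. The 3 Geltrex™ values of the latter, from 0.444 to 0.519, lay above all others. These ratios were chosen after the values had been seen and were not tested.

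**Figure D3:**
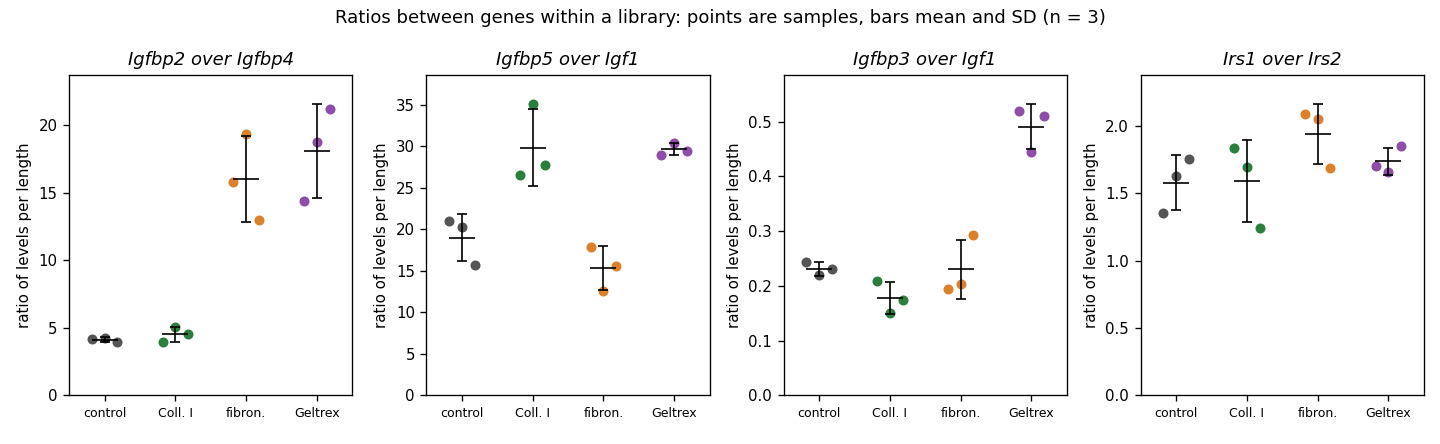
Ratios between genes within a library, computed on levels per kilobase of exon, by group, with a point for each sample, a bar for the mean, and error bars for the SD (n = 3). *Igfbp2* over *Igfbp4* is 12.96 or more on fibronectin and Geltrex™ and at most 5.04 elsewhere, *Igfbp5* over *Igf1* is high on Collagen I and Geltrex™, *Igfbp3* over *Igf1* is high on Geltrex™, and *Irs1* over *Irs2* lies between 1.25 and 2.09 throughout.

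*Irs1*, an adaptor gene downstream of the receptors, was highest on Geltrex™. Its level was 36.8, 42.0, and 39.8 CPM in the control, 49.4, 48.4, and 34.6 on Collagen I, 54.1, 55.1, and 49.3 on fibronectin, and 84.5, 82.2, and 91.1 on Geltrex™. The Geltrex™ samples lay above all 9 others, and the fibronectin samples above all control samples. Geltrex™ exceeded control 2.17-fold (log2 fold change 1.12, SE 0.113, adjusted p = 1.81e-06 in edgeR's test), which passed as a DEG. It also exceeded Collagen I (-0.96 for Collagen I over Geltrex™, adjusted p = 7.76e-06) and fibronectin (-0.70 for fibronectin over Geltrex™, adjusted p = 0.000355).

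Leaving out any 1 library kept the log2 fold change of *Irs1* on Geltrex™ over control between 1.07 and 1.18. On fibronectin *Irs1* exceeded control by 0.42 (SE 0.113, adjusted p = 0.0107 in edgeR's test), a call that was lost without control replicate 1 (adjusted p = 0.0503). Collagen I over fibronectin was -0.26 (adjusted p = 0.0735) and passed without Collagen I replicate 1 (0.0384), without Collagen I replicate 2 (0.0433), or without the filter on low counts (0.0421). Its adjusted p reached 0.354 in another fit without 1 library. Collagen I over control was 0.16 (adjusted p = 0.529).

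*Irs2*, the second adaptor gene, was higher on Geltrex™ than on any other surface, and no difference among the other 3 surfaces was called. Its level was 18.8, 17.9, and 15.7 CPM in the control, 18.6, 19.7, and 19.2 on Collagen I, 17.9, 18.5, and 20.2 on fibronectin, and 34.3, 34.3, and 34.0 on Geltrex™. The lowest Geltrex™ sample was well above the highest of the other 9, and those 9 overlapped. Over control the fold was 1.96 on Geltrex™ (log2 fold change 0.97, SE 0.0885, adjusted p = 6.19e-07 in edgeR's test). Collagen I over Geltrex™ was -0.83 (adjusted p = 2.56e-06) and fibronectin over Geltrex™ was -0.86 (adjusted p = 4.99e-06).

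Between the other surfaces, the log2 fold change of *Irs2* was 0.14 for Collagen I over control (adjusted p = 0.491, 95% interval -0.05 to 0.33), 0.11 for fibronectin over control (adjusted p = 0.359, 95% interval -0.08 to 0.30), and 0.02 for Collagen I over fibronectin (adjusted p = 0.858, 95% interval -0.17 to 0.21). Leaving out any 1 library kept Geltrex™ over control between 0.90 and 1.03 for *Irs2*. *Irs1* per length was 1.58 ± 0.204 times *Irs2* in the control, 1.59 ± 0.308 on Collagen I, 1.94 ± 0.222 on fibronectin, and 1.74 ± 0.102 on Geltrex™ (SD, n = 3 each), so both adaptor genes rose on Geltrex™ with their ratio within the range of the other groups. The rise stood beside interferon-stimulated genes at 53.9 to 93.2 CPM on Geltrex™, whose part in it was not tested.

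By comparison, 1 of 10 members was called between Collagen I and control, against 1.12% of all genes tested, and it was lower on Collagen I, as were 0.917% of all genes, while 0 members and 0.200% of all genes were higher. Between fibronectin and control 5 of 10 were called, against 31.9% of all genes tested, with 3 higher on fibronectin (17.1% of all genes) and 2 lower (14.7%). Between Geltrex™ and control 7 of 10 were called, against 33.0%, with 5 higher on Geltrex™ (16.4% of all genes) and 2 lower (16.6%). The median absolute log2 fold change of the 10 members was 0.55 for Geltrex™ over control, against 0.25 over all genes tested, and 0.25 for fibronectin over control, against 0.26. The median of the members was thus above that of all genes on Geltrex™ but not on fibronectin, and the comparisons share their control samples.

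Between the coatings, 7 of 10 members were called for Collagen I over fibronectin, against 45.0% of all genes tested, with 4 higher (22.1% of all genes) and 3 lower (22.9%). For Collagen I over Geltrex™ 6 were called, against 37.1%, with 2 higher (18.2%) and 4 lower (19.0%). For fibronectin over Geltrex™ 5 were called, against 19.3%, with 1 higher (10.3%) and 4 lower (9.06%). The median absolute log2 fold changes of the members were 0.47, 0.64, and 0.30, against 0.33, 0.28, and 0.21 over all genes tested. With the fold change of at least 2 that defines a DEG, the calls were *Igfbp4* for fibronectin over control (against 6.66% of all genes), *Igfbp4* and *Irs1* for Geltrex™ over control (9.14%), and *Igfbp3* and *Igfbp4* for Collagen I over Geltrex™ (9.32%). There were 0 member DEGs for Collagen I over control (0.131%), Collagen I over fibronectin (8.46%), and fibronectin over Geltrex™ (3.98%). Without regard to the fold, edgeR's test gave an unadjusted p under 0.05 to 4, 8, and 6 members in these 3 comparisons, against 14.8%, 52.2%, and 33.0% of all genes. DESeq2 called 2, 7, and 5 members there, against 3.63%, 45.6%, and 21.5%.

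The samples of the 2 groups compared did not overlap for 4 of 10 members between Collagen I and control, against 17.3% of all genes tested, for 5 between fibronectin and control (41.6%), and for 9 between Geltrex™ and control (50.4%). The exception on Geltrex™ was *Igf2r*. Between coatings the number was 6 for each comparison, against 51.4% for Collagen I and fibronectin, 54.7% for Collagen I and Geltrex™, and 42.7% for fibronectin and Geltrex™.

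**Figure D4:**
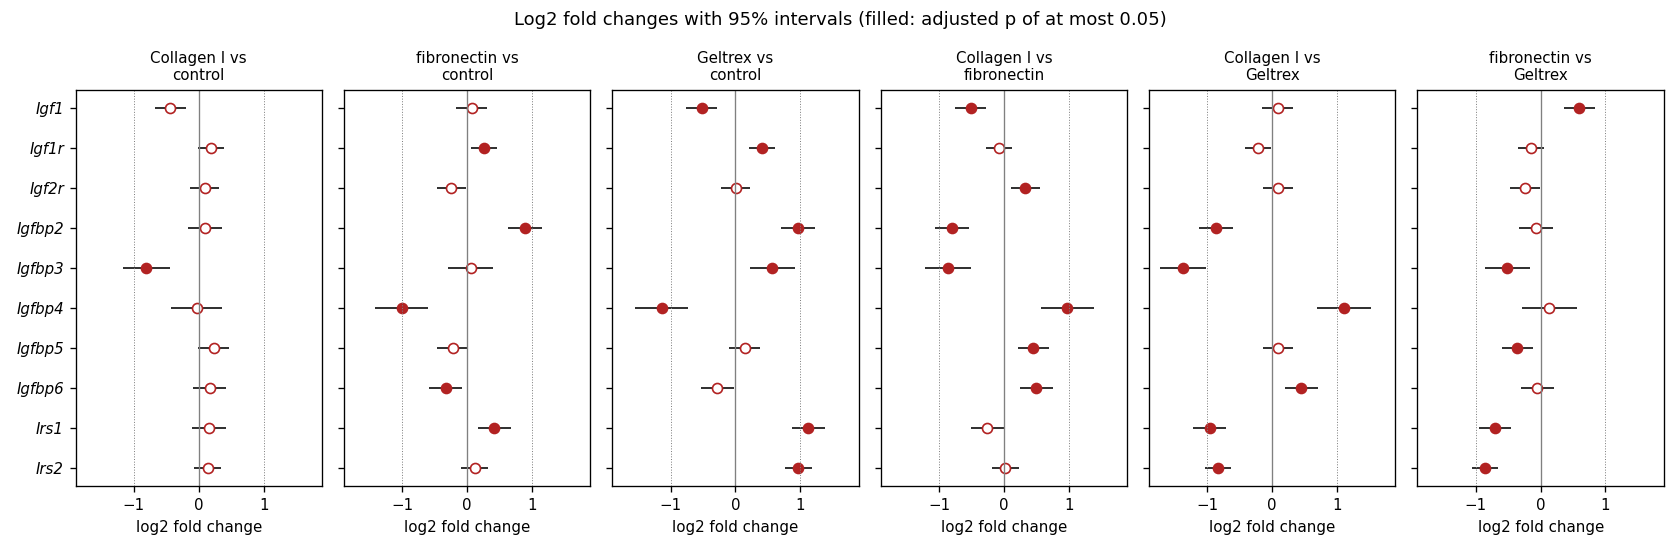
Log2 fold changes of the 10 genes in the 6 comparisons, the first group named over the second, with 95% intervals as lines and filled points where the adjusted p was at most 0.05. Dotted lines mark a fold change of 2, which is passed by *Igfbp4* on fibronectin and Geltrex™ and by *Irs1* on Geltrex™ over control, and by *Igfbp3* and *Igfbp4* for Collagen I over Geltrex™.

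Counts over genes differed less between the 3 Geltrex™ samples (chi-square per degree of freedom 2.18 to 4.54) than between the samples of any other group (7.71 to 64.6), though by more than sampling noise. When they were summed into 1 sample, an alternative chosen after seeing the data that assumes the sum to vary like samples of the other groups, the Geltrex™ calls of *Irs1*, *Irs2*, *Igfbp2*, *Igfbp4*, and *Igf1r* over control stayed past the threshold. Lost over control were *Igf1* (adjusted p = 0.0733) and *Igfbp3* (0.107) on Geltrex™, *Igf1r* (0.0507) and *Igfbp6* (0.0646) on fibronectin, and *Igfbp3* (0.0651) on Collagen I. Lost between coatings were *Igfbp6* for Collagen I over Geltrex™ (0.108) and *Igf1* (0.0743), *Igfbp3* (0.265), and *Igfbp5* (0.298) for fibronectin over Geltrex™.

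Of 50 other genes of the IGF and insulin pathway, from the insulin receptor to mTOR, 40 passed the filter on low counts. In edgeR's test 1 was called for Collagen I over control, against 1.12% of all genes tested, and it was lower (0.917% of all genes). For fibronectin over control 19 were called (31.9%), with 10 higher (17.1% of all genes) and 9 lower (14.7%). For Geltrex™ over control 15 were called (33.0%), with 4 higher (16.4% of all genes) and 11 lower (16.6%). Between coatings 20 were called for Collagen I over fibronectin (45.0%), with 9 higher (22.1% of all genes) and 11 lower (22.9%). Collagen I over Geltrex™ had 15 (37.1%), with 8 higher (18.2%) and 7 lower (19.0%). Fibronectin over Geltrex™ had 8 (19.3%), with 5 higher (10.3%) and 3 lower (9.06%). Apart from fibronectin over control, the total counts of these 40 genes were close to the shares over all genes. By direction, Geltrex™ over control had fewer higher and more lower than the shares over all genes, a difference that was not tested. The fibronectin over control count fell to 11 without control replicate 1. The fibronectin over Geltrex™ count was 13 without Collagen I replicate 3, 5 without fibronectin replicate 1, fibronectin replicate 2, or Geltrex™ replicate 2, 4 without Geltrex™ replicate 1, and 3 without Geltrex™ replicate 3.

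*Insr*, the insulin receptor gene, whose product also signals through IRS1 and IRS2, was called in none of the 6 comparisons. Its level was 64.4, 75.5, and 70.0 CPM in the control, 87.8, 84.2, and 64.9 on Collagen I, 78.4, 74.5, and 69.4 on fibronectin, and 74.5, 76.0, and 84.3 on Geltrex™, and its log2 fold changes over control were 0.17 on Collagen I, 0.08 on fibronectin, and 0.16 on Geltrex™ (SE 0.106 each, adjusted p from 0.265 to 0.588 in edgeR's test).

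*Pappa*, the gene of pappalysin-1, a protease that frees IGF by cutting binding proteins such as IGFBP4, was highest on fibronectin. Its level was 2.31, 3.67, and 2.29 CPM in the control, 1.60, 2.19, and 1.08 on Collagen I, 9.47, 8.88, and 4.82 on fibronectin, and 4.27, 4.24, and 3.16 on Geltrex™. All fibronectin samples lay above every other sample. The log2 fold change was 1.48 for fibronectin over control (SE 0.271, adjusted p = 0.000716 in edgeR's test), -2.23 for Collagen I over fibronectin (adjusted p = 2.25e-05), and -1.25 for Collagen I over Geltrex™ (adjusted p = 0.00479). On fibronectin, *Pappa* was thus called higher and *Igfbp4* called lower than in the control.

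For fibronectin over Geltrex™ the log2 fold change of *Pappa* was 0.99 (SE 0.263, adjusted p = 0.0155 in edgeR's test), a call lost without fibronectin replicate 1 (adjusted p = 0.0849), fibronectin replicate 2 (0.0641), or Geltrex™ replicate 3 (0.0775) and with the Geltrex™ samples summed (0.198). Geltrex™ over control was 0.49 (adjusted p = 0.206), and Collagen I over control was -0.75 (adjusted p = 0.278), which passed without the filter on low counts (0.0316). The Collagen I value did not pass in any fit without 1 library (adjusted p from 0.171 to 0.650).

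*Stc2*, one of the stanniocalcin genes, whose products inhibit pappalysins, was lowest on Geltrex™. Its level was 3.26, 3.34, and 3.14 CPM in the control, 2.60, 2.30, and 2.85 on Collagen I, 2.49, 3.31, and 2.14 on fibronectin, and 1.54, 1.48, and 1.40 on Geltrex™, where all samples lay below every other. Geltrex™ over control was -1.14 (SE 0.199, adjusted p = 0.000365 in edgeR's test), and Geltrex™ was also below Collagen I (0.80 for Collagen I over Geltrex™, adjusted p = 0.00593) and fibronectin (0.84 for fibronectin over Geltrex™, adjusted p = 0.00844). With the Geltrex™ samples summed, the comparisons with Collagen I (adjusted p = 0.0786) and fibronectin (0.122) missed the threshold.

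*Stc1*, the other stanniocalcin gene, was near the limit of detection, at 1.39, 1.43, and 1.36 CPM in the control, 0.953, 1.26, and 1.21 on Collagen I, 0.446, 1.21, and 0.272 on fibronectin, and 1.62, 1.48, and 1.26 on Geltrex™. Fibronectin over control was -1.13 (SE 0.379, adjusted p = 0.0324 in edgeR's test) and fibronectin over Geltrex™ was -1.20 (SE 0.381, adjusted p = 0.0381). The first was lost without any 1 of the 3 control replicates (adjusted p from 0.0589 to 0.0710) and without fibronectin replicate 1 (0.134) or 3 (0.116). The second was lost without fibronectin replicate 1 (0.146) or 3 (0.108) and without Geltrex™ replicate 1 (0.121), 2 (0.0994), or 3 (0.0646). Without fibronectin replicate 2 the values were -1.94 over control (0.000772) and -2.002 over Geltrex™ (0.000963), and without fibronectin replicate 3 they were -0.76 and -0.83. Both were lost in a fit of the 2 groups compared (0.0751 and 0.0587) and with the Geltrex™ samples summed (0.0645 and 0.241). Collagen I over fibronectin (0.85, adjusted p = 0.0877) passed without fibronectin replicate 2 (0.00209) and reached an adjusted p of 0.301 in another such fit.

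*Igfbp7*, a gene related to the IGF binding proteins and named after its values were seen, was the single pathway gene called for Collagen I over control. Its level was 129, 119, and 148 CPM in the control, 101, 83.0, and 87.8 on Collagen I, 92.0, 122, and 94.2 on fibronectin, and 95.8, 91.9, and 90.4 on Geltrex™. The log2 fold change over control was -0.54 on Collagen I (SE 0.112, adjusted p = 0.0275 in edgeR's test), -0.36 on fibronectin (adjusted p = 0.0217), and -0.51 on Geltrex™ (adjusted p = 0.00237). The Geltrex™ call was kept whichever library was left out but was lost with the Geltrex™ samples summed (adjusted p = 0.0901), as were those on Collagen I (0.105) and fibronectin (0.0575). The Collagen I call was lost without control replicate 3 (adjusted p = 0.117), Collagen I replicate 2 (0.118) or 3 (0.0612), or Geltrex™ replicate 1 (0.0566), 2 (0.0577), or 3 (0.0545), and in the fit of 2 groups (0.0837), and the fibronectin call without control replicate 3 (0.102) or fibronectin replicate 1 (0.119) or 3 (0.0805).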

How the data were processed

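Per the labels and the methods of the study, the authors used FastQC, Trimmomatic for trimming, HISAT2 for alignment, and featureCounts for counting per gene, and they deposited raw read counts for the 12 samples without pooling or normalization. Versions, genome build, annotation release, and the counting rules for strand and shared reads were not given in the sources used here. Unequal handling of overlapping genes could move single genes, and scaling treats the bulk of genes as unchanged.

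All 55536 identifiers matched GENCODE M21 (GRCm38), which gave names, positions, and exon lengths. Counts were tested with edgeR 4.0.16 (limma 3.58.1, R 4.3.3). The filter, filterByExpr, kept a gene with at least 15 counts in total. The gene also had to reach, in at least 3 samples, the CPM of 10 counts in a library of median size. After TMM scaling, a quasi-likelihood fit of group means covered 14499 genes with 8 residual degrees of freedom, with Benjamini-Hochberg adjustment. Intervals are 95% and unadjusted. The SE is the absolute log2 fold change divided by the square root of the F statistic, and the intervals are built from it. The procedure was tested on simulated data. Per-length levels divide CPM by the length of all exons together. Alternatives were DESeq2 1.42.0, RLE scaling, other filters, 2-group fits, a replicate block, and leaving out each library. Totals of 22520404 to 27351766 counts per sample limit the precision of low genes such as *Stc1*.

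The members and lists were chosen with earlier results of these data known. The text names all members, *Insr*, *Igf2*, the pathway genes that passed as DEGs in any comparison, and the 3 genes most like each member that was a DEG in at least 2 comparisons. *Igfbp7* was named outside that rule. The correlation of deviations between samples of the same number ranged from -0.154 to 0.225 and in no comparison exceeded 0.1 for every pair, so the numbers were not taken as pairs.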

Additional observations from a re-analysis of the deposited data

How the results depend on the processing

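Counts of called members (Collagen I, fibronectin, and Geltrex™ over control, then Collagen I over fibronectin, Collagen I over Geltrex™, and fibronectin over Geltrex™) were 1, 5, 7, 7, 6, and 5. With a fold change of at least 2 they were 0, 1, 2, 0, 2, and 0. For Collagen I over control DESeq2 and the absence of a low-count filter each gave 2, and the 2-group fit and the summed Geltrex™ samples each gave 0. Summing the Geltrex™ samples gave 3 for fibronectin over control and 2 for fibronectin over Geltrex™. Over all genes, the calls for Collagen I over control were 162 in the main fit, 485 with DESeq2, and 581 without the filter. Calls over all genes are not given here for the 2-group fit, the summed samples, or the fits without 1 library. A change in member counts there cannot be told from a change over all genes. Leaving out 1 library gave ranges for the members of 0 to 2, 2 to 6, 7 to 8, 6 to 8, 6 to 7, and 3 to 5. The lower values were 2 without control replicate 1 and 3 without control replicate 3 for fibronectin over control.

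The same limit on calls over all genes holds for the pathway list. Counts of other pathway genes (1, 19, 15, 20, 15, and 8) became 0, 2, 1, 1, 1, and 1 with the fold change, and ranged over 0 to 1, 11 to 19, 10 to 16, 17 to 21, 12 to 17, and 3 to 13 when 1 library was left out. For Collagen I over control they were 2 without the filter and 0 in the 2-group fit and with the Geltrex™ samples summed, which gave 4 for Geltrex™ over control, 3 for Collagen I over Geltrex™, and 1 for fibronectin over Geltrex™, where the 2-group fit gave 13.

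Per length of the longest transcript, *Igf1* was at 42.6, *Igf1r* at 11.7, and *Igfbp2* at 36.0 CPM per kilobase. In plain CPM the binding protein shares were 1.15% for *Igfbp2*, 0.625% for *Igfbp3*, 95.3% for *Igfbp5*, and 2.56% for *Igfbp6*.

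Of 1140 refits of member fold changes, 1064 kept direction and call, 36 lost the call, 21 gained it, and 19 changed sign. All sign changes were of values not called. *Igf2r* on Geltrex™ over control was -0.0172 with genes under 10 counts in any sample left out and -0.0046 in the 2-group fit. With 1 library left out, ranges that crossed 0 were -0.12 to 0.076 for *Igfbp4* on Collagen I, -0.033 to 0.22 for *Igf1* and -0.076 to 0.20 for *Igfbp3* on fibronectin, and -0.033 to 0.068 for *Igf2r* and -0.011 to 0.16 for *Stc1* on Geltrex™, all over control. They were -0.019 to 0.068 for *Irs2* and -0.17 to 0.15 for *Stc2* for Collagen I over fibronectin, and -0.016 to 0.14 for *Igfbp5*, -0.074 to 0.14 for *Insr*, and -0.12 to 0.023 for *Igfbp7* for Collagen I over Geltrex™. For fibronectin over Geltrex™ they were -0.15 to 0.033 for *Igfbp2*, -0.055 to 0.34 for *Igfbp4*, and -0.14 to 0.047 for *Igfbp6*. The cause of these changes was not tested.

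The replicate number as a block moved no member by more than 0.0196 on the log2 scale. Of the calls on members it changed that of *Igf1r* for Collagen I over Geltrex™ (adjusted p = 0.0450 in edgeR's test with the block).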
